A study of Mus musculus with 18 samples.

Results

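Young soleus was compared with young tibialis anterior (TA), with 3 libraries of each muscle, taken by the muscle and age in the library titles from the 18 libraries of the study. Of 29542 genes with a transcript in the files, 10859 passed the count filter of edgeR (minimum count 10) and were tested. The filter was applied over the 16 libraries described below, so libraries outside this comparison could meet it. Of the tested genes, 5 had no reads in the 6 libraries compared. The study sequenced messenger RNA of soleus, TA and extensor digitorum longus (EDL) from young and old mice. All mice were labelled wild type, no treatment is named, and ages are given only as young or old. The labels do not say that the libraries of a group came from separate animals, so the p-values measure the spread between these libraries, which may be technical. That spread was estimated over 16 libraries, 3 each of young soleus, old soleus, young TA and old TA and 2 each of young and old EDL. A further 2 EDL libraries were left out of the fit because their titles and file names give opposite ages.

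Soleus is a deep calf muscle that holds posture, and in the mouse it mixes slow type I fibres with fast oxidative type IIa fibres. TA lifts the foot and consists mostly of fast type IIx and IIb fibres. Fibre types are known to differ in the isoforms of nearly every sarcomere protein, in the pump that returns calcium to the sarcoplasmic reticulum, and in how they make ATP, with slow fibres relying on fat and lactate oxidation and fast fibres on glycogen and glycolysis. Calcineurin signalling and factors such as Prox1 are known to maintain the slow programme, and Eya, Sox6 and large Maf factors the fast programme.

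The labels held up against the markers of both muscles. Of 17 slow sarcomere genes, 16 were higher in soleus and none in TA, and their summed level was 38904.9 to 47210.7 CPM (reads scaled to a common library size by TMM) in the soleus libraries against 4308.5 to 4445.4 CPM in TA. Of 15 fast sarcomere genes, 14 were higher in TA and none in soleus, with sums of 34277.0 to 44058.3 CPM in soleus and 101073.5 to 130793.8 CPM in TA. Depth was 2760587 to 6551090 reads in soleus and 2211027 to 7641838 in TA, and mitochondrially encoded genes took 16.49% to 21.04% and 21.25% to 28.01% of the reads. The first principal component, with 50.3% of the variance, separated the muscles. TA replicate 3, the shallowest library, stood apart on the second (20.3%), at -46.2 against 31.6 and 23.0 in the other TA libraries. In bulk samples a smaller number of cells of a type and less RNA per cell cannot be told apart, and this holds for every difference below.

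Across all genes, 1158 of 10859 genes (10.7%) passed an adjusted p of 0.05 (quasi-likelihood test of edgeR, adjusted by Benjamini and Hochberg) and are termed called. Higher in soleus were 577 (5.31%) and higher in TA 581 (5.35%). The difference was 1 or more on the log2 scale for 742 of them (6.83% of the genes tested), and 2 or more for 266. The 3 soleus libraries lay wholly above or below the 3 TA libraries for 3624 genes (33.4%), among them 1138 of the 1158. Differences are given as log2 of soleus over TA, so positive values are higher in soleus. Their median over all genes was 0.01 with TMM scaling and 0.301 with scaling to total reads alone, under which 81.2% of 1776 calls were higher in soleus, against 49.8% with TMM. Differences here are relative to the TMM scaling.

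**Figure D1:**
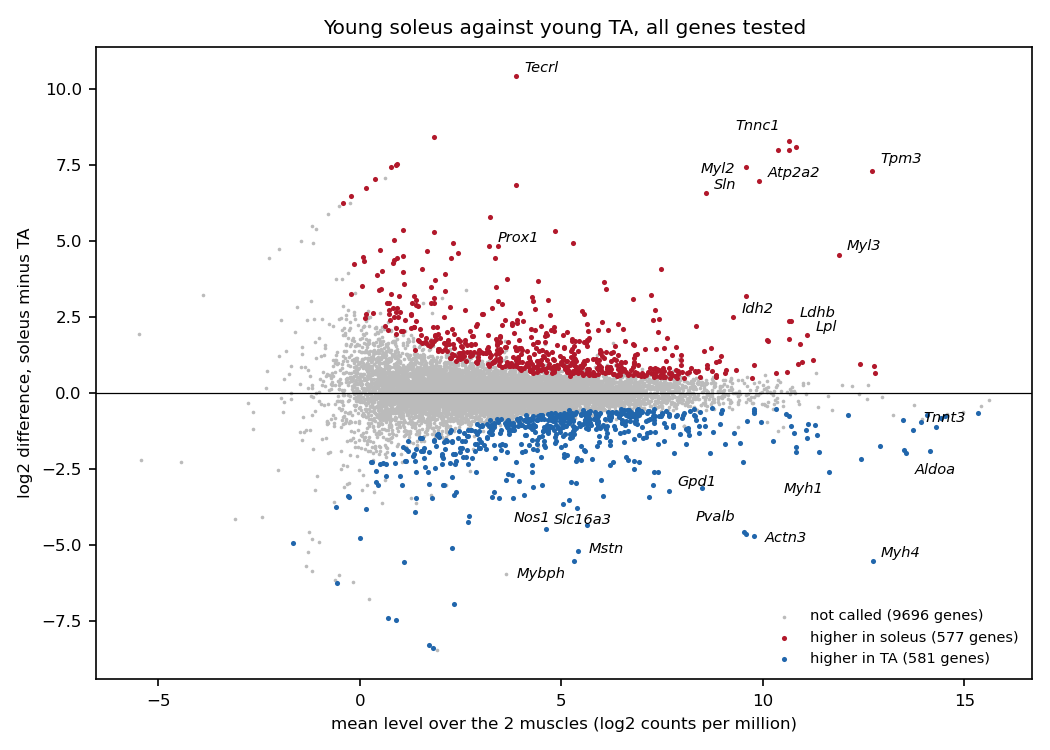
Log2 difference of soleus over TA (vertical axis) against the mean level of both muscles (log2 CPM), for 10854 tested genes, leaving out 5 with no reads in the 6 libraries. Called genes are coloured by the muscle with the higher level and genes with some of the largest differences are named; Tecrl is the highest named point at 10.45, slow sarcomere genes follow at high levels, with Tnnc1 at 8.31, and Myh4 is the lowest named point at high levels, at -5.53.

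The largest difference among abundant genes was in slow troponin C. Tnnc1, the calcium-binding subunit of the slow thin filament (ENSMUSG00000091898, GRCm38 chr14:31208312-31211729, plus strand), stood at 3609.2, 3236.5 and 2720.7 CPM in soleus and at 8.38, 12.7 and 7.46 CPM in TA. The muscles did not overlap, and the log2 difference was 8.31 (SE 0.297, adjusted p = 7.58e-17), a 318-fold difference. Tnni1, the slow inhibitory subunit (chr1:135779434-135810989), stood at 4625.8, 3662.4 and 2618.5 CPM against 11.7, 16.9 and 9.45 CPM. Its log2 difference was 8.10 (SE 0.343, adjusted p = 6.78e-13). Tnnt1, the slow subunit that anchors troponin to tropomyosin, differed by 8.02 (SE 0.277, adjusted p = 1.66e-17), from 3080.5, 2683.2 and 2215.6 CPM to 8.10, 11.4 and 10.9 CPM. All 3 slow troponins were thus present in TA at about 10 CPM in each library and highest in soleus replicate 1.

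Slow myosin and its light chains followed. Myh7, the heavy chain of type I fibres (chr14:54970684-54994626, minus strand), stood at 3439.6, 3237.6 and 2844.1 CPM in soleus and 9.22, 15.6 and 10.4 CPM in TA, a log2 difference of 8.02 (SE 0.494, adjusted p = 1.17e-07). The slow regulatory light chain Myl2 stood at 1577.0, 1548.4 and 1413.1 CPM against 5.87, 9.21 and 11.4 CPM (7.45, SE 0.361). Myl3, the slow essential light chain, kept a higher level in TA than these, at 283.5, 278.0 and 359.5 CPM against 7777.0, 7575.0 and 6334.3 CPM in soleus (4.56, SE 0.237). In 2 young EDL libraries Myl3 was at 26.6 and 12.7 CPM. Tpm3, slow tropomyosin, had the smallest p of all genes, with 14421.7, 13312.8 and 12421.0 CPM in soleus and 79.1, 82.9 and 92.5 CPM in TA (7.31, SE 0.240, adjusted p = 8.83e-18). Among other slow-list genes, the calcineurin-binding Z-disc protein Myoz2 was higher by 3.20, the Z-disc adaptor Pdlim1 by 3.23 and alpha-actinin 2 (Actn2) by 1.10. Mybpc1, slow myosin binding protein C, was the member that did not pass with TMM scaling and no length offset (0.28, adjusted p = 0.34). Mybpc1 stood at 2199.4, 2140.0 and 2404.2 CPM in soleus and 1993.1, 1801.8 and 1776.1 CPM in TA. It passed with a transcript length offset (0.74) and with scaling to total reads (0.57), and stood at 967.0 ± 42.7 TPM in soleus and 470.6 ± 22.8 TPM in TA (SD, n = 3). Of this TPM, the 600-base transcript Mybpc1-203, annotated as a retained intron, made up 24.1% in soleus and 2.26% in TA. Its part in the Mybpc1 difference was not tested. The median over the 17 slow genes was 3.43.

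Fast sarcomere genes were also measured at high levels in soleus, and their median difference was -1.97. Mylpf, the fast regulatory light chain, stood at 1116.8, 1257.1 and 1085.2 CPM in soleus and 3822.4, 3573.1 and 2331.9 CPM in TA, without overlap (log2 difference -1.49, SE 0.184, adjusted p = 1.41e-06). The fast troponins Tnnc2, Tnni2 and Tnnt3 differed by -0.94, -1.05 and -1.21, fast tropomyosin Tpm1 by -1.89 and the fast essential light chain Myl1 by -1.86. A second set differed by more. Actn3, the alpha-actinin of fast Z-discs, stood at 80.7, 26.3 and 92.1 CPM in soleus and 1935.0, 1940.3 and 1238.6 CPM in TA (-4.69, SE 0.435, adjusted p = 9.07e-06). Fast myosin binding protein C (Mybpc2) differed by -4.64, from 75.1, 22.5 and 81.4 CPM to 1716.0, 1667.7 and 1058.6 CPM. Parvalbumin (Pvalb), a cytosolic calcium buffer that speeds relaxation, differed by -4.57, from 59.7, 30.1 and 91.1 CPM to 1623.8, 1593.0 and 1042.7 CPM. Soleus replicate 2 was the lowest of the 3 soleus libraries for each of these 3 genes. Mybph, a relative of myosin binding protein C, reached 94.4, 110.5 and 29.8 CPM in TA and 2.29, 1.81 and 0.336 CPM in soleus (-5.53, SE 0.541).

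Of the fast myosin heavy chains, Myh1 and Myh4 were higher in TA and Myh2 did not pass. Myh2, Myh1 and Myh4 encode the IIa, IIx and IIb chains and lie side by side (chr11:67171027-67197517, chr11:67200052-67224575 and chr11:67238029-67260446, all on the plus strand). Their coding sequences are similar, so how reads are divided between them is uncertain. Myh4 was at 14744.2, 15185.6 and 9878.7 CPM in TA and at 529.5, 12.3 and 318.8 CPM in soleus, where replicate 2 held far less than the other libraries. The log2 difference was -5.53 (SE 1.20, adjusted p = 0.0135), and the call was lost without soleus replicate 3 and when the spread was estimated from the 6 young libraries alone, with adjusted p up to 0.204. Myh1 stood at 571.6, 785.3 and 1377.2 CPM in soleus and 5759.3, 5395.3 and 5405.7 CPM in TA (-2.60, SE 0.348, adjusted p = 0.000131). Myh2 overlapped between the muscles, at 2400.8, 3390.6 and 3564.8 CPM against 1129.1, 2159.9 and 2599.4 CPM (0.67, SE 0.258, adjusted p = 0.114). It passed as higher in soleus without TA replicate 3 and with scaling to total reads.

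Levels of different genes were compared per length, as TPM, which divides reads by transcript length. Of the summed TPM of the 4 adult heavy chains, Myh7 made up 49.9%, 43.9% and 35.9% in soleus and 0.0434%, 0.143% and 0.0594% in TA. Myh2 made up 34.6%, 45.7% and 43.9% in soleus and 5.41%, 9.74% and 14.8% in TA. The IIx chain Myh1 held 11.6% ± 4.35 in soleus and 26.7% ± 3.21 in TA (SD, n = 3 each). Myh4 held 3.79% ± 3.63 in soleus and 63.2% ± 7.06 in TA. So the I and IIa chains made up most heavy chain transcripts in each soleus library, and the IIb chain more than any other in each TA library. In EDL, Myh4 took 85.0% to 88.7% and Myh7 at most 0.0164%. The summed TPM of the 4 genes was 1452.7 ± 109.9 in soleus and 3081.8 ± 433.6 in TA.

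**Figure D2:**
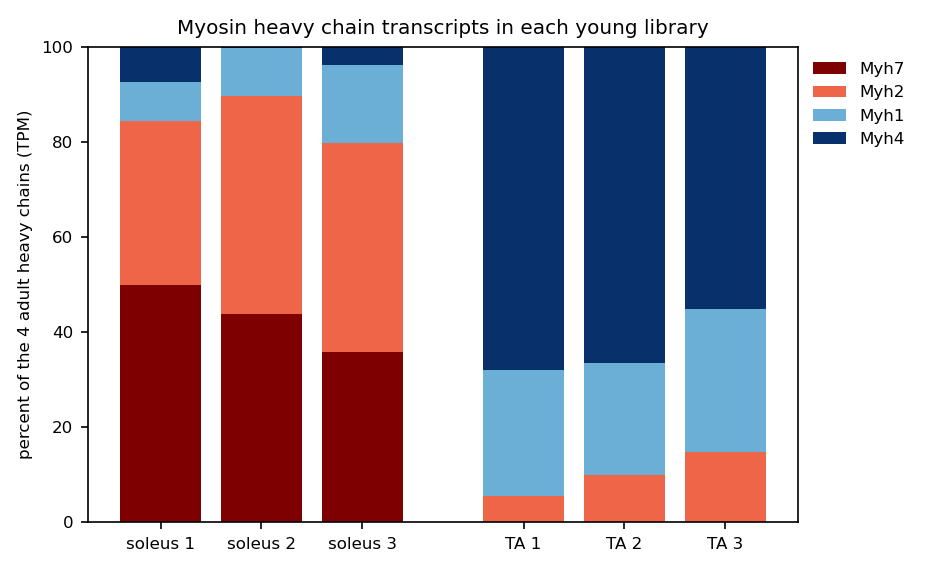
Share of each adult myosin heavy chain gene in the summed TPM of the 4 genes (percent), with 1 stacked bar per young soleus and TA library. Myh7 and Myh2 fill most of each soleus bar, and Myh4 takes 55.1% to 68.0% of each TA bar.

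Slow and fast members were then set against each other within 13 families. The slow share, the slow gene's TPM as a percentage of slow plus fast TPM, was higher in all 3 soleus libraries than in any TA library in 13 of 13 families. With 3 libraries against 3 the exact permutation test (two-sided) cannot go below p = 0.1, the value each family had. Over all genes, 33.4% also had no overlap between the muscles. Families fell into different ranges in TA. In troponin C, T and I, tropomyosin, myosin heavy chain and the calcium pump the slow share in TA was at most 0.319% in any library. Myl2 reached 0.892% and Myl3 2.40% in TA replicate 3. By contrast Myoz2 held 8.32%, 11.5% and 18.3%, the lactate dehydrogenase Ldhb 14.6%, 21.6% and 21.8%, Actn2 33.2%, 36.6% and 47.8% and Mybpc1 52.4%, 51.5% and 61.9% in TA. Soleus shares ranged from 13.5% ± 2.08 for calsequestrin 2 (Casq2) to 98.0% ± 1.04 for Mybpc1. Tnnc1 made up 22.2% ± 4.28 of troponin C and Tnni1 60.4% ± 7.49 of troponin I in the same soleus libraries, since Tnnc2 stood at 22307.6 ± 1661.7 TPM and Tnni2 at 3275.7 ± 95.6 TPM there.

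**Figure D3:**
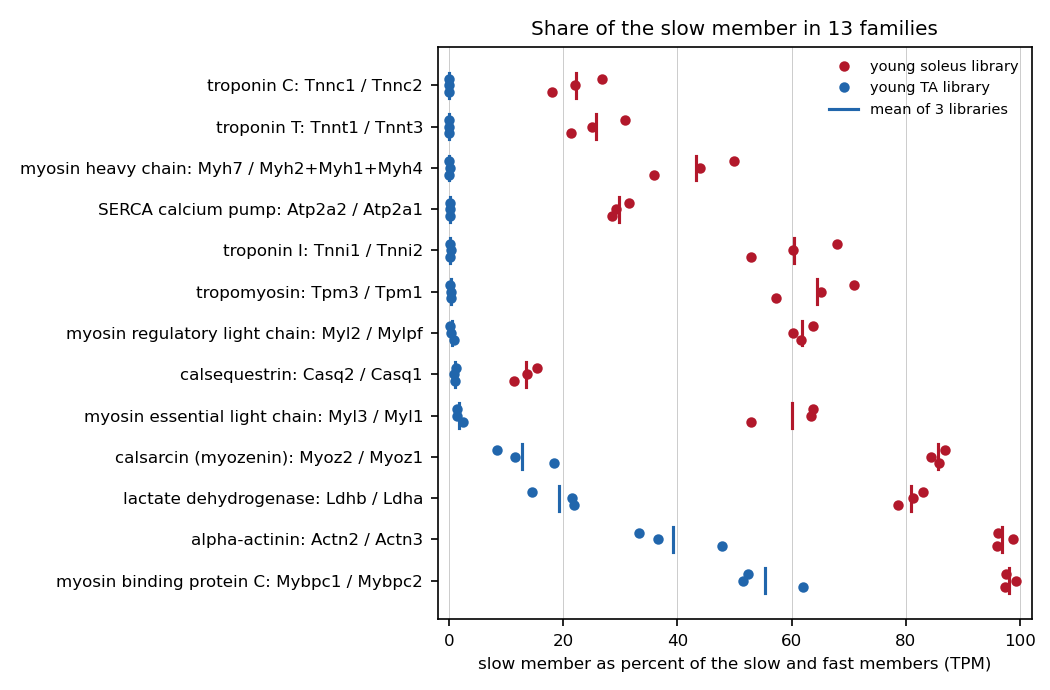
Slow member's share of the slow plus fast TPM (percent) in 13 gene families, with 1 point per young soleus and TA library. All soleus points lie to the right of all TA points; TA is near 0% for troponins and heavy chain and between 51.5% and 61.9% for myosin binding protein C.

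The promoters of 2 slow and fast pairs are shown because those genes moved in opposite directions. Each is the 250 bases before the RefSeq start (GRCm38.p6), read 5′ to 3′ on the gene's strand, with matches on either strand in capitals to motifs known in muscle genes, the E-box CANNTG and the MCAT element CATTCC. A MEF2-like motif was searched too and had no match in these 4 windows. Motifs may overlap.
Tnnc1, chr14:31208062-31208311, plus strand: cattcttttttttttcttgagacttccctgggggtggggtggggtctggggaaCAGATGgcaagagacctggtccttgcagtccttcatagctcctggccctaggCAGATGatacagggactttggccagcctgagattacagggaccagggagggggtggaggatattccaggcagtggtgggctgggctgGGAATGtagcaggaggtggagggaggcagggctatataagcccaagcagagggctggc
Tnnc2, chr2:164779735-164779984, minus strand: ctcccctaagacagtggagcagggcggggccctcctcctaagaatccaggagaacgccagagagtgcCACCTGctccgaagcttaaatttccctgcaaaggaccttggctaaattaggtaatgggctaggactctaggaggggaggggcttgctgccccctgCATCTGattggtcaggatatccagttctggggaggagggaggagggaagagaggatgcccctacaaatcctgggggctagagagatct
Myl3, chr9:110763428-110763677, plus strand: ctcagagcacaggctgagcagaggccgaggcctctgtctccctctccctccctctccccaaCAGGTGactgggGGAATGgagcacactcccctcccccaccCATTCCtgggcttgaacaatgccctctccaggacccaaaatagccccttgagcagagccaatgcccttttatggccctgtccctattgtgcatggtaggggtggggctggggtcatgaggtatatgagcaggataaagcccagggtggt
Mylpf, chr7:127211358-127211607, plus strand: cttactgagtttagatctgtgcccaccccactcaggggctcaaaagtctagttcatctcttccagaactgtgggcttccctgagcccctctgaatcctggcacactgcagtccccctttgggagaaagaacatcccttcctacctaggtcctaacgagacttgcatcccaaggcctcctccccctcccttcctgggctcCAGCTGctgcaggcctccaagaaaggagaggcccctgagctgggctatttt
An E-box lay in this window in 15 of 16 slow sarcomere genes higher in soleus and in 7 of the 8 fast ones higher in TA that matched, against 69.3% of 27025 genes. The MCAT letters were in 3 of 16 slow genes (Myh7, Myl3 and Tnnc1) and 5 of 8 fast genes (Myh1, Myh4, Myl1, Tpm1 and Mybpc2), against 14.4% of all. The MEF2-like motif was in 1 of 16 (Myoz2) and 0 of 8, against 3.70%. Mylk2, Tnni2, Tnnt3, Actn3, Myoz1 and Myom2 were not matched. A match is a match of letters in this window only.

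Calcium handling differed in the pump, its regulators and the storage proteins. Atp2a2, the slow SERCA2 pump (chr5:122453513-122502225, minus strand), stood at 2087.7, 1851.6 and 1781.4 CPM in soleus and 17.0, 16.3 and 10.9 CPM in TA (6.97, SE 0.306, adjusted p = 1.69e-13). The fast pump Atp2a1 remained the more abundant in soleus per length, at 1287.1 ± 52.3 TPM against 546.6 ± 63.4 TPM for Atp2a2, and was higher in TA (-1.75, SE 0.237). Sarcolipin (Sln), a small inhibitor of the pump, stood at 861.3, 773.3 and 652.4 CPM against 10.3, 6.84 and 6.46 CPM (6.59, SE 0.639, adjusted p = 3.56e-05). The slow calcium store Casq2 was higher in soleus by 2.27 and the fast store Casq1 in TA (-1.57). Of 24 genes of the reticulum and calcium release, 4 were higher in soleus and 4 in TA, with a median of -0.46, and 16 did not pass, including the release channel Ryr1 (-0.54, adjusted p = 0.0733) and triadin (Trdn, -0.22, adjusted p = 0.497). The 4 in TA became 10 without old soleus replicate 1 and with a GC and length offset, and 11 with only the 6 young libraries. Ryr1 passed in 6 of 26 other settings.

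Of 18 genes of calcineurin and calmodulin kinase signalling, 4 were higher in soleus and 6 in TA (median -0.34). With scaling to total reads 4 were higher in soleus and 3 in TA, and without TA replicate 2 there were 2 and 5. Rcan1, a calcineurin inhibitor that is itself a known calcineurin target, stood at 108.3, 96.5 and 119.7 CPM in soleus and 14.8, 32.8 and 12.4 CPM in TA (2.35, SE 0.439, adjusted p = 0.00317). The deacetylase Hdac9 was higher in soleus by 1.67, and the related Rcan2 and the transcription factor Nfatc2, the other members called there, were higher as well. The catalytic calcineurin subunits Ppp3ca and Ppp3cb and the kinases Camk2a and Camk2g were among those higher in TA. Camk2a stood at 18.4, 22.9 and 20.2 CPM against 80.4, 85.5 and 61.2 CPM (-1.90, SE 0.236).

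Among 24 fibre-type transcription factors 4 were higher in soleus and 6 in TA, with a median of 0.14. Prox1, a homeobox factor of slow fibres (chr1:190118035-190170714, minus strand), stood at 19.5, 16.9 and 17.8 CPM in soleus and 0.559, 0.837 and 0.0 CPM in TA (4.85, SE 0.543, adjusted p = 2.80e-07). In the opposite direction, Sox6, a repressor of slow genes, was at 24.5, 32.8 and 47.8 CPM in soleus and 126.0, 104.6 and 109.9 CPM in TA (-1.72, SE 0.215). The large Maf factor Maf stood at 30.0, 38.8 and 39.0 CPM against 195.3, 136.6 and 160.1 CPM (-2.19, SE 0.321). Eya4, a transcriptional cofactor, differed by -2.32, Myod1, the myogenic factor linked to fast fibres, by -2.14 and Tbx15, a T-box factor of glycolytic fibres, by -0.88. Mef2c overlapped, at 1063.4 to 1327.4 CPM in soleus and 904.9 to 1095.3 CPM in TA, and was not called (0.18, adjusted p = 0.581). Of 38 limb patterning genes only 17 had enough reads. Of these, 2 were called (11.8%, against 10.7% of all genes), each higher in soleus. Among them was Hoxd8, at 12, 14.5 and 14.5 CPM against 1.4, 1.53 and 4.97 CPM (2.60, SE 0.397).

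Glycolysis was the metabolic list with the most one-sided count. Of its 16 genes, 14 were higher in TA and none in soleus, with a median of -1.50 and a summed level of 35057.5 to 52352.8 CPM in TA against 12228.2 to 14664.2 CPM in soleus. Aldoa, the muscle aldolase, stood at 5406.2, 5033.0 and 4214.2 CPM in soleus and 21846.8, 21629.7 and 14068.2 CPM in TA (-1.97, SE 0.213, adjusted p = 1.51e-07). Muscle enolase (Eno3) differed by -2.16, phosphofructokinase (Pfkm) by -1.95, fructose bisphosphatase 2 (Fbp2) by -1.86, triose phosphate isomerase (Tpi1) by -1.63 and lactate dehydrogenase A (Ldha) by -1.78. The members that did not pass were the hexokinases, the entry step from blood glucose: Hk2 stood at 508.4, 497.8 and 514.5 CPM against 588.6, 538.7 and 478.3 CPM (-0.08, SE 0.150), and Hk1 was below 6 CPM in each library.

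Genes of glycogen breakdown were higher in TA as well. Of 15 glycogen genes 8 were higher in TA and 2 in soleus (median -0.76). Phosphorylase kinase, which switches on glycogen phosphorylase, differed most: its subunit Phka1 stood at 50.6, 41.0 and 51.5 CPM in soleus and 314.3, 311.3 and 240.2 CPM in TA (-2.60, SE 0.182, adjusted p = 5.19e-11). The catalytic subunit Phkg1 differed by -2.60 and Phkb by -1.97. Muscle phosphorylase (Pygm) differed by -1.94. Glycogen synthase (Gys1) stood at 347.2, 329.9 and 290.9 CPM against 412.6, 423.7 and 385.3 CPM, a difference of -0.34 that missed the threshold (adjusted p = 0.374). Neither did the branching enzyme Gbe1 (0.00, SE 0.200). The primer protein glycogenin (Gyg) and the phosphatase inhibitor Ppp1r1a were higher in soleus.

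Of 16 genes of lactate and redox shuttles, 3 were higher in soleus and 5 in TA, and 8 did not pass. Slc16a3, the MCT4 transporter known for lactate export, stood at 2.15, 2.36 and 1.68 CPM in soleus and 45.0, 49.0 and 47.2 CPM in TA (-4.46, SE 0.283, adjusted p = 6.95e-12). Slc16a1, the MCT1 transporter known for lactate uptake, was higher in soleus, at 74.4, 88.6 and 113.0 CPM against 47.5, 31.5 and 47.2 CPM (1.14, SE 0.221). Ldhb, the dehydrogenase subunit of oxidative tissue, was higher in soleus at 3207.0, 2862.5 and 2308.0 CPM against 453.1, 644.1 and 510.1 CPM (2.38, SE 0.189). Both enzymes of the glycerol phosphate shuttle were higher in TA, the cytosolic Gpd1 at 42.7, 35.4 and 40.7 CPM against 419.3, 391.6 and 285.4 CPM (-3.21, SE 0.195) and the mitochondrial Gpd2 by -3.02. In the malate aspartate shuttle the carrier Slc25a12 was higher in TA (-1.02) and its relative Slc25a13, at 6.06, 6.71 and 5.38 CPM against 0.279, 0.977 and 0.994 CPM, in soleus (2.96). The list median was -0.28, which moved to 0.01 with scaling to total reads.

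Fat uptake and oxidation differed the other way by smaller steps. Of 30 genes 9 were higher in soleus and none in TA, 25 of the 30 had a positive difference, and the median was 0.42. Lipoprotein lipase (Lpl), which frees fatty acids from circulating lipoproteins, stood at 3604.6, 3483.0 and 3303.2 CPM in soleus and 755.9, 937.9 and 1057.1 CPM in TA (1.92, SE 0.157, adjusted p = 1.09e-09). The cytosolic fatty acid carrier Fabp3 stood at 2867.5, 2266.1 and 2347.1 CPM against 714.5, 557.5 and 889.5 CPM (1.79, SE 0.185). Enzymes inside the mitochondrion differed by less, such as the thiolase Acaa2 (0.73, adjusted p = 0.00166) and the electron acceptor subunit Etfb (0.72, adjusted p = 0.012), and Acadvl did not pass (0.32, adjusted p = 0.293). The count of 9 fell to 4 without soleus replicate 1, 5 without soleus replicate 2 or TA replicate 1 and 6 without TA replicate 2. It rose to 13 without old soleus replicate 1, 14 with only the 6 young libraries, 18 with a GC and length offset and 19 with scaling to total reads. Without soleus replicate 1, 1 gene was higher in TA, and the Etfb call was lost without soleus replicate 1 or TA replicate 3.

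Lipid droplet genes had 5 of 16 higher in soleus and 1 in TA (median 0.45). The 5 became 3 without soleus replicate 1 or TA replicate 2. Dgat2, which makes triglyceride, stood at 71.5, 56.8 and 58.5 CPM against 14.8, 26.2 and 13.9 CPM (1.71, SE 0.250), and the monoglyceride lipase Mgll was higher by 1.20. Cidea, a droplet protein of fat cells, stood at 9.02, 10.2 and 12.1 CPM against 0.279, 0.279 and 0.994 CPM (4.61, SE 0.551). Of 9 measured adipocyte markers 5 were higher in soleus (Adipoq, Cidec, Retn, Cfd and Cidea) and none in TA, and 2 of them, Cidea and Cidec, are also called members of the lipid droplet list. The summed level was 348.6 to 476.8 CPM in soleus and 208.3 to 306.2 CPM in TA. Adiponectin (Adipoq) was at 3.63, 4.90 and 3.70 CPM against 0.838, 0.419 and 0.994 CPM (2.61, adjusted p = 0.0135), and of the markers without enough reads Plin1 and Adrb3 had 1 read each and Ucp1 had 0. The part of fat cells in the lipid genes was not tested. The adipocyte count was 2 without TA replicate 2 and 3 without soleus replicate 2, and the Adipoq call was lost in both cases.

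Differences in the mitochondrial machinery were mixed. Idh2, which makes NADPH in the mitochondrial matrix (chr7:80094846-80115392, minus strand), was higher in soleus at 1250.2, 1089.1 and 791.3 CPM against 125.7, 215.1 and 211.8 CPM (2.5, SE 0.221, adjusted p = 5.85e-09). Idh3a, a subunit of the NAD-dependent enzyme of the citric acid cycle, was higher in TA at 986.7, 1108.7 and 1125.9 CPM against 2409.8, 2126.2 and 2226.5 CPM (-1.07, SE 0.147). Of the 21 citric acid cycle genes, Idh2 was higher in soleus and Idh3a and Dlat in TA (14.3% called, against 10.7% of all genes). The median was -0.28, or 0.02 with scaling to total reads. The Dlat call was lost in 9 of 26 other settings. Among 45 nuclear genes of oxidative phosphorylation 2 were higher in soleus (Ndufb3 and Cox6a1) and 2 in TA, among them Atp5b, 8.9% of them against 10.7% of all genes, with a median of 0.07. With scaling to total reads 15 were higher in soleus and 0 in TA (median 0.36), and with a GC and length offset 1 and 7 (median -0.10). No gene of this list was called without soleus replicate 2 or without TA replicate 1 or 2. The calls of Ndufb3, Cox6a1 and Atp5b were each lost in 5 or more of 26 other settings. All 13 mitochondrially encoded genes had a negative difference and 5 were called, with a median of -0.76. One of them, mt-Nd5, stood at 6138.1, 7905.1 and 10149.0 CPM in soleus and 15226.6, 11335.9 and 18061.3 CPM in TA (-0.88, SE 0.221, adjusted p = 0.00845). Within each muscle the mitochondrial share of reads was higher in shallower libraries, and the part of depth in these 5 calls was not tested. The 5 calls became 1 without soleus replicate 1 or TA replicate 3, 2 without soleus replicate 2 or TA replicate 1, 9 without old soleus replicate 1, and 0 with scaling to total reads. In the other direction, they became 9 with only the 6 young libraries, 12 with no filter and 13 with a GC and length offset.

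Several regulators of mitochondrial genes were measured as well. The nuclear receptor Esrrg stood at 47.1, 53.0 and 67.9 CPM in soleus and 21.2, 26.4 and 32.8 CPM in TA (1.07, SE 0.267), and Esrrb was higher by 1.93. Ppargc1a, the coactivator PGC-1 alpha, was lower in soleus, at 31.6, 31.6 and 40.4 CPM against 52.0, 58.9 and 56.2 CPM (-0.70, SE 0.198, adjusted p = 0.0202), as was the corepressor Nrip1 (-0.79). The Ppargc1a call was lost without soleus replicate 1 or 2, without TA replicate 2 or 3, and with scaling to total reads. Over the 20 genes the median was -0.04, or 0.24 with scaling to total reads. Of 19 genes of oxygen binding and oxidant defence, 5 were higher in soleus and 2 in TA, which became 3 and 0 without soleus replicate 2 or TA replicate 3, 3 and 1 without soleus replicate 1 and 3 and 2 without TA replicate 1. Nqo1, a quinone reductase, stood at 72.4, 74.0 and 70.6 CPM against 20.4, 24.4 and 22.9 CPM (1.68, SE 0.202), catalase (Cat) was higher by 0.84, and myoglobin (Mb), the oxygen store of red muscle, at 2067.9, 1937.5 and 1718.2 CPM against 1178.5, 1288.3 and 1107.8 CPM, by 0.68 (SE 0.182, adjusted p = 0.0136). The Mb call was lost without soleus replicate 1 or 2 or TA replicate 1 or 3, with adjusted p up to 0.0727, the Esrrg call without TA replicate 1 and the Nrip1 call without soleus replicate 1 or 2.

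**Figure D4:**
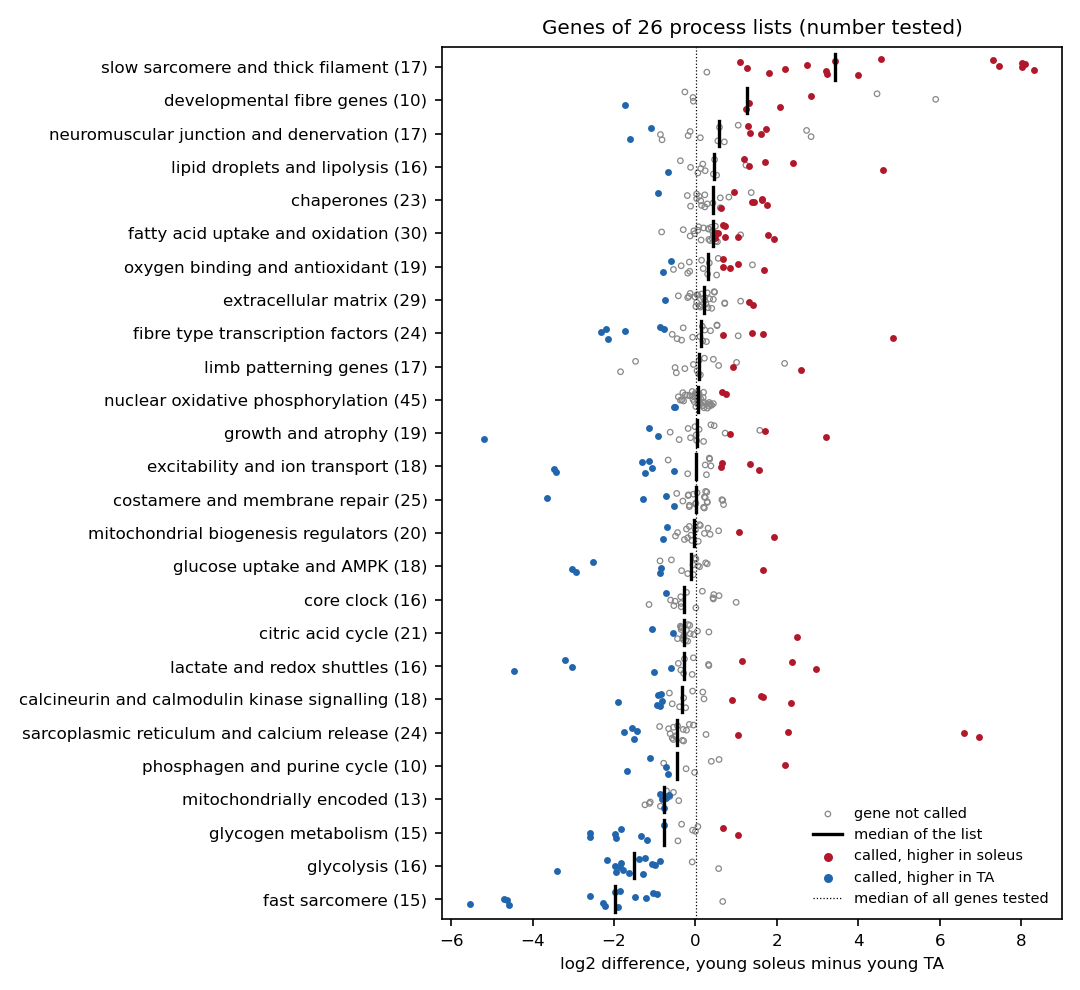
Log2 difference of soleus over TA for the tested genes of each process list, 1 point per gene, with called genes coloured by the muscle with the higher level. Vertical marks give list medians, from 3.43 for slow sarcomere genes to -1.97 for fast ones, around 0.01 for all genes.

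The balance of several lists moved with the scaling. With scaling to total reads, fibre-type transcription factors had 7 genes higher in soleus and 5 in TA, lactate and redox shuttles 5 and 4, and ion transport 7 and 4. Lipid droplet genes had 7 and 0, oxygen binding and oxidant defence 7 and 0, and chaperones 12 and 0. The phosphagen system had 2 and 2, the citric acid cycle 2 and 1, the regulators of mitochondrial genes 2 and 0, and the neuromuscular junction 5 and 1. The extracellular matrix had 3 and 0, fibro-adipogenic cells 3 and 1 and the clock genes 1 and 0. Slow sarcomere genes had 17 and 0, fast sarcomere genes 1 and 14 and glycolysis 0 and 14.

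Of 10 genes of the phosphagen system and purine cycle, 4 were higher in TA and 1 in soleus. Ckm, cytosolic creatine kinase, stood at 14380.0, 12569.5 and 11065.7 CPM in soleus and 28775.2, 32538.8 and 21080.4 CPM in TA (-1.12, SE 0.236, adjusted p = 0.00214), while the mitochondrial kinase Ckmt2 overlapped (-0.02, SE 0.156). The AMP deaminases differed in opposite directions. Ampd1, the muscle form, differed by -1.69 and Ampd3 by 2.19, at 39.2, 47.7 and 51.1 CPM in soleus against 9.22, 8.09 and 14.4 CPM in TA. In the AMP-activated kinase, the regulatory subunits Prkab2 and Prkag3 were higher in TA, Prkab2 at 32.7, 27.9 and 39.0 CPM against 191.6, 181.4 and 192.9 CPM (-2.51, SE 0.193) and Prkag3 by -3.03. Its targets in glucose transport were split, with Tbc1d1 at 7.40, 7.44 and 12.1 CPM against 67.6, 63.8 and 68.1 CPM (-2.93, SE 0.238) and Tbc1d4 higher in soleus at 36.9, 40.7 and 32.6 CPM against 9.22, 10.7 and 15.9 CPM (1.67, SE 0.237). The transporter they act on, Slc2a4, did not pass (-0.34, adjusted p = 0.353). In all, 1 of 18 genes of glucose uptake was higher in soleus and 5 in TA, with a median of -0.12, or 0.16 with scaling to total reads.

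Of 18 ion transport genes, 4 were higher in soleus and 7 in TA, against 10.7% of all genes called. Without soleus replicate 2 or TA replicate 1 there were 2 and 4, and 3 and 4 without soleus replicate 1 or 3 or TA replicate 2. Atp1b2, a beta subunit of the sodium pump, stood at 20.7, 20 and 34.6 CPM in soleus and 283.2, 310.4 and 191.9 CPM in TA (-3.42, SE 0.215, adjusted p = 6.45e-12). The fast potassium channel Kcnc4 was at 2.69, 1.09 and 3.36 CPM against 32.7, 23.9 and 19.4 CPM (-3.47, SE 0.374). Clcn1, the chloride channel that stabilises the resting membrane, differed by -1.31. Car3, the carbonic anhydrase abundant in slow muscle, was at 9676.9, 8074.9 and 8271.0 CPM in soleus and 5594.3, 5443.5 and 5454.4 CPM in TA (0.66, SE 0.151). At the neuromuscular junction 4 of 17 genes were higher in soleus and 2 in TA, with a median of 0.59. The receptor subunit Chrna1 stood at 72.5, 65.9 and 64.9 CPM against 22.1, 25 and 11.9 CPM (1.73, SE 0.308), and the receptor kinase Musk was higher by 1.28. The adult receptor subunit Chrne was higher in TA, at 8.07, 9.07 and 6.73 CPM against 16.5, 18.4 and 16.9 CPM (-1.10, SE 0.252), as was acetylcholinesterase (Ache, -1.60, adjusted p = 0.024). The Ache call was lost without any 1 of 5 of the young libraries, all but TA replicate 3.

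Genes of growth and of developing fibres held some of the widest differences outside the sarcomere. As a list, the 19 growth and atrophy genes were balanced, with 3 higher in soleus, 3 in TA and 13 not called (median 0.03). Myostatin (Mstn), the secreted inhibitor of muscle growth (chr1:53061640-53068079, plus strand), stood at 1.75, 2.18 and 3.36 CPM in soleus and 109.5, 79.8 and 59.7 CPM in TA (-5.20, SE 0.347, adjusted p = 8.81e-11), a 36.7-fold higher level in TA. Follistatin (Fst), which binds myostatin, was low in both and higher in soleus, at 4.44, 3.63 and 5.72 CPM against 0.0, 0.558 and 0.994 CPM (3.21, SE 0.638). Bnip3, a mitophagy receptor, stood at 1806.5, 1729.1 and 1635.1 CPM against 527.9, 521.1 and 526.1 CPM (1.72, SE 0.174). The ubiquitin ligase Trim63 was higher in TA (-0.93), whereas Fbxo32 overlapped (0.02, adjusted p = 0.986). Of 10 developmental fibre genes 4 were higher in soleus, among them the embryonic heavy chain Myh3 at 9.55, 8.53 and 6.73 CPM against 1.12, 1.26 and 0.994 CPM (2.83, SE 0.438), and cardiac actin (Actc1) was higher in TA (-1.73). The 4 became 2 without soleus replicate 2 or 3 or TA replicate 1 or 3, and the calls of Myl4, Myh8 and Tnnt2 were each lost in 3 to 5 of 26 other settings, while that of Myh3 held in all 26. Satellite cell markers had 2 of 8 higher in soleus, Myf5 (1.67) and Sdc4 (1.30), while Pax7 had 22 reads over the 6 libraries and was not tested.

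Chaperones had 7 of 23 higher in soleus and 1, the myosin chaperone Unc45b, in TA (median 0.43). The small heat shock protein Cryab, which binds desmin and titin, stood at 1777.7, 1638.2 and 1639.5 CPM against 486.9, 463.6 and 551.4 CPM (1.75, SE 0.170, adjusted p = 2.40e-08). Hspb7 was higher by 1.63 and Hspb6 by 0.95, while the abundant Hspa8 and Hsp90ab1 overlapped between the muscles (0.15 and 0.03). Hspa1l, higher by 1.38, can share reads with its relatives. The list of the costamere, which links sarcomeres to the membrane, also held genes of membrane repair and sarcomere genes such as Neb. Of its 25 genes, 4 were higher in TA and 0 in soleus, against 10.7% of all genes called. Those higher in TA were Nos1, Synm, Xirp2 and Neb. The Xirp2 call was lost in 7 of 26 other settings, and the Neb call with scaling to total reads. With scaling to total reads 2 were higher in TA and 7 in soleus, and without old soleus replicate 1 there were 4 and 2. Its signalling enzyme Nos1, the neuronal nitric oxide synthase, stood at 3.63, 6.17 and 5.04 CPM in soleus and 55.0, 67.4 and 59.7 CPM in TA (-3.64, SE 0.365, adjusted p = 5.36e-07), and the filament protein Synm differed by -1.28. The other genes of this list included titin (Ttn, -0.18, adjusted p = 0.67) and desmin (Des, 0.28, adjusted p = 0.463), which were not called.

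Of 100 measured markers of other cells, 15 were called (15%, against 10.7% of all genes), 7 of them the fat and satellite cell markers given above. No marker was called among 15 of endothelium, 12 of smooth muscle and pericytes, 7 of Schwann cells and 4 of neutrophils and mast cells. Tendon had 1 of 10, Fmod, at 12, 11.4 and 21.9 CPM in soleus and 29.1, 36.7 and 37.3 CPM in TA (-1.23, adjusted p = 0.00878). Fibro-adipogenic cells had 2 higher in soleus (Pi16 and Mfap5) and 2 in TA (Smoc2 and Cxcl14) of 13. The extracellular matrix had 2 in soleus (Lama2 and Fbn1) and 1 in TA (Timp3) of 29 (10.3% called). Of these, Fmod was not called without soleus replicate 1 or 2, Pi16 without soleus replicate 1 or 2 or TA replicate 1 or 3, Smoc2 without soleus replicate 1, Cxcl14 without soleus replicate 1 or TA replicate 3, and Fbn1 without TA replicate 1. Macrophages had 1 of 12 (Lyz2), the clock genes 1 of 16 (Rora, higher in TA) and red cells 1 of 5 (Hbb-bs, 0.91), whose reads can be shared with Hbb-bt. The red cell count was 3 without old soleus replicate 3. The calls of Lyz2, Rora and Hbb-bs were each lost when some single young library was left out. Only Igkc of 11 lymphocyte markers had enough reads, and no bone or cartilage marker had. Of 4 measured spindle markers Myh7b was higher in soleus, which is also on the slow list, at 4.98, 3.63 and 3.36 CPM against 0.559, 0.140 and 0.0 CPM (3.98, SE 0.769).

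Genes outside the lists also reached the extremes. Tecrl, a gene related to trans-enoyl reductases (chr5:83278145-83355195, minus strand), had 254, 189 and 57 reads in soleus and 0 in each TA library, at least 163-fold more against a floor of 3 reads over the group. It was also listed at 0 in both young EDL libraries. Lgi1, a secreted protein known from synapses, stood at 57.3, 61.9 and 47.8 CPM in soleus and 0.559, 1.26 and 2.98 CPM in TA (5.34, SE 0.377), and the receptor-like Nlrc3 at 34.6, 27.2 and 25.2 CPM against 0.0, 0.419 and 0.0 CPM (6.86, SE 0.613). With 1 library left out the Nlrc3 difference ran from 6.42 to 10.41, so its size is uncertain. Ift81, a subunit of the ciliary transport complex, stood at 92.3, 67.1 and 68.6 CPM against 2.51, 2.37 and 2.49 CPM (4.95, SE 0.289). It lies at chr5:122550204-122614518 on the minus strand, the next tested gene upstream of Atp2a2. Higher in TA were the calcium-binding Cib2 at 6.73, 5.08 and 5.04 CPM against 82.7, 82.9 and 69.6 CPM (-3.77, SE 0.229), the lipoprotein-associated phospholipase Pla2g7 (-4.34, SE 0.359) and the iron exporter Slc40a1 at 3.50, 7.26 and 7.73 CPM against 79.1, 54.8 and 68.1 CPM (-3.51, SE 0.262). In all 15 called genes had 0 reads in 1 muscle, and their reads in the other muscle summed to 8 (Prr32) to 500 (Tecrl).

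Beside gene levels, the share of each transcript within its gene was tested for 3665 transcripts of 1346 genes with edgeR's diffSpliceDGE on the 6 young libraries. It called 32 transcripts (0.873%) in 24 genes. Of these, 17 had 3 or fewer reads in 1 muscle, as Rab6a-203 with 211 reads in soleus and 0 in TA, and are not described further. The other 15 were in 8 genes, Mybpc1, Myom1, Ndrg2, Neb, Pgm1, Tnnt3, Tpm3 and Ttn, most of them sarcomere genes. The transcript values are the depositors' estimates from reads that transcripts of a gene share.

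Fast troponin T (Tnnt3, chr7:142498836-142516009, plus strand) is known for short alternative exons that set its N-terminal charge and for a pair of exclusive exons near its end. It had 5 of 15 tested transcripts called. Tnnt3-216 made up 39.7%, 42.4% and 35.0% of the gene in soleus and 3.64%, 3.87% and 5.39% in TA (relative log2 difference 3.13, adjusted p = 9.77e-06). In the opposite direction Tnnt3-201 made up 1.05%, 0.0629% and 0.558% in soleus and 29.4%, 30.0% and 22.6% in TA (-5.77, adjusted p = 8.15e-12). Without overlap, each of these transcripts was the larger in a different muscle, while Tnnt3-206 was at 32.2% ± 4.0 and 36.4% ± 6.27 and was not called. The gene as a whole was lower in soleus.

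Printed are Tnnt3 exons that some tested transcripts hold and others skip, except those nearly never or nearly always used in both muscles. Not all of them separate the transcripts named above. Capitals mark the exon and lower case the 12 bases on either side in the spliced transcript, 5′ to 3′ on the plus strand (GRCm38).
Exon of 18 bases, chr7:142502740-142502757: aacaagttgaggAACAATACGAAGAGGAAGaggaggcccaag
Exon of 15 bases, chr7:142504250-142504264: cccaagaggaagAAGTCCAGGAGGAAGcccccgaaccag
Exon of 12 bases, chr7:142505288-142505299: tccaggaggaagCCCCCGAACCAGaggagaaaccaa
Exon of 15 bases, chr7:142505516-142505530: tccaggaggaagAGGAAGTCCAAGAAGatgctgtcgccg
Exon of 39 bases, chr7:142507750-142507788: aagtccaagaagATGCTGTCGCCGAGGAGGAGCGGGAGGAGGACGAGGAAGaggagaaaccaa
First 41-base exon, chr7:142513665-142513705: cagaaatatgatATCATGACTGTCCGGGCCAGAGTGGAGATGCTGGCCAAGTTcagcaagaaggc
Second 41-base exon, chr7:142514326-142514366: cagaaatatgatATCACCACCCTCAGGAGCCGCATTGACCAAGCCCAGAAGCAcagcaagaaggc
Inclusion was taken as the TPM of transcripts with the exon over that of all transcripts spanning it. The 18-base exon was included at 89.8%, 95.3% and 91.4% in soleus and 52.8%, 49.3% and 61.5% in TA, a difference of 37.7 percentage points. The second 15-base exon, at 142505516, was at 90.8% ± 3.0 and 56.1% ± 6.35. The 12-base exon went the other way, at 27.3%, 20.8% and 23.2% in soleus and 55.1%, 53.6% and 43.5% in TA, a difference of -26.9 points. The first 15-base exon differed by 9.40 points, at 64.6% ± 4.32 and 55.2% ± 5.38, and in old muscle lay lower in soleus, at 52.4% to 54.4% against 55.8% to 59.7%. The 39-base exon was rare, at 3.08% ± 0.464 and 0.969% ± 0.376. Of the 41-base exons the second was used in 98.1% ± 0.368 in soleus and 94.1% ± 2.43 in TA, and the first in 1.32% ± 0.390 and 5.39% ± 2.33. No Tnnt3 exon overlapped between the muscles, and for each the exact permutation p was 0.1, the smallest that 3 against 3 allow. Tnnt3 was chosen for its transcript calls in the same libraries, so this adds no separate support. In young EDL, a further fast muscle, the 18-base exon was at 30.5% to 33.7% and the 12-base exon at 69.6% to 70.8%, both farther from soleus than TA was, as was the second 15-base exon (35.0% to 36.8%). Other exons went differently. The first 15-base exon was at 71.7% to 72.6%, above both muscles, and the 41-base exons were at 2.04% or less and 97.5%, closer to soleus than TA was. The transcripts, exons and libraries share reads, so the 7 exons are not independent.

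**Figure D5:**
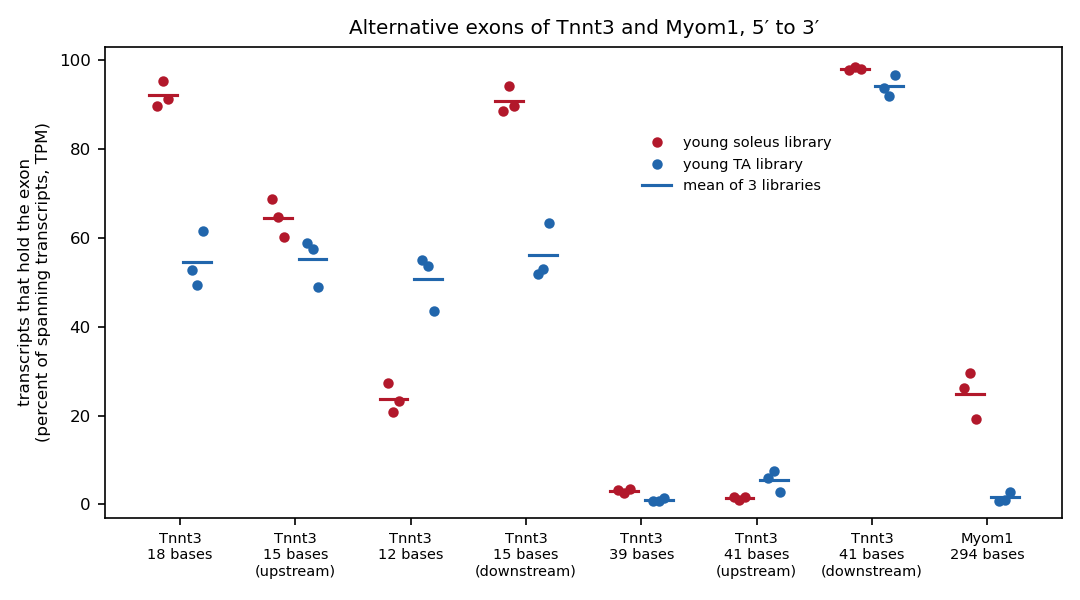
Inclusion (percent) of 7 alternative exons of Tnnt3 and of the 294-base exon of Myom1, with 1 point per young soleus and TA library. The 18-base exon of Tnnt3 lies above 89% in soleus and below 62% in TA, and the Myom1 exon at 19.2% or more in soleus and 2.76% or less in TA.

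Myomesin 1 (Myom1, chr17:71002633-71126856, plus strand) crosslinks thick filaments at the M-band, and soleus used an exon of it that TA largely skipped. Transcript Myom1-202, the only one with this 294-base exon (chr17:71082203-71082496), made up 26.1%, 29.5% and 19.2% of the gene in soleus and 0.827%, 1.03% and 2.76% in TA (4.13, adjusted p = 3.63e-06). In old soleus its share was 28.5% to 34.4% and in old TA at most 0.965%. It is printed with 3 flanking bases in lower case.
Myom1 exon: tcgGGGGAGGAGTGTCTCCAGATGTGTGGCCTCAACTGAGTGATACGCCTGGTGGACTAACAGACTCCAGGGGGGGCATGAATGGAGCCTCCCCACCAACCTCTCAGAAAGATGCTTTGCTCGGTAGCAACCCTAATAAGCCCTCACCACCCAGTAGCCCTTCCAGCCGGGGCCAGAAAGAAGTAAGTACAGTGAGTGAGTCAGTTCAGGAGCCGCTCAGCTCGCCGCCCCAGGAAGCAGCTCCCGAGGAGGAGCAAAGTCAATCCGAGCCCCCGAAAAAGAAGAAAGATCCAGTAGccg
Smaller shares moved in the other genes. Pgm1-202, of phosphoglucomutase, was at 0.417%, 0.569% and 0.619% in soleus and 9.17%, 10.2% and 9.26% in TA (-4.14, adjusted p = 2.45e-05). Neb-206, of the thin filament ruler nebulin, was at 0.312%, 0.0391% and 1.22% against 6.97%, 6.2% and 4.25% (-3.52). Ndrg2-202 was higher in soleus, at 8.46%, 6.01% and 10.6% against 0.564%, 1.35% and 1.19% (2.97), and its call was lost with the replicate block and with the 12 soleus and TA libraries. The Pgm1 call was lost with limma diffSplice. Also higher in soleus was Mybpc1-203, annotated as a retained intron, at 22.5%, 27.1% and 22.6% against 0.687%, 2.40% and 3.69% (3.93). Mybpc1 thus differed in its transcripts. Tpm3-202 was at most 0.627% in soleus and 6.92% to 12.9% in TA. Only its share was higher in TA, since it had 2400 reads in soleus and 169 in TA. The whole gene was at 13833.6 ± 1345.3 TPM in soleus and 61.6 ± 7.2 TPM in TA. Titin (Ttn) had 2 such calls, Ttn-205 at 5.30%, 6.79% and 6.61% in soleus against 3.82%, 3.54% and 3.90% in TA, and Ttn-209 at 1.02%, 0.680% and 0.260% against 5.67%, 5.93% and 6.39%. Both titin calls were lost without soleus replicate 2 or any 1 of the TA libraries.

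The same contrast in old mice used other libraries. There 2087 genes (19.2%) were called, and of the 1158 genes called in young muscle 1108 (95.7%) had the same sign in old, against 66.9% of all genes, with 786 called in the same direction. Slow shares in old soleus were also above those in old TA for each family, as 38% to 47.0% against at most 0.0881% for Myh7. The muscle difference itself differed with age for 14 genes (0.129%), with 1233 at an unadjusted p below 0.05. Among the 14 were Myh2, 4 of the tendon markers (Fmod, Thbs4, Comp and Angptl7) and the fibro-adipogenic markers Gsn and Serpinf1. Depth was 5197518 to 17037294 reads in old soleus and 1151987 to 1862280 in old TA. Mitochondrially encoded genes took 11.29% to 19.67% and 27.01% to 29.22% of the reads. The part of depth in the results from old muscle was not tested.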

How the data were processed

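Transcript abundance was measured by RNA sequencing of wild-type mouse muscle. Per the labels' protocols, total RNA was isolated with a fibrous tissue kit and libraries were made with a SMARTer mRNA kit. The submitters' processing notes list the aligner STAR 2.5.1a, bcl2fastq and, from Subread, the counter featureCounts 1.4.6-p5. Not given in the sources used here: which program estimated transcripts, its strand setting, the build and the annotation, so overlapping and antisense genes cannot be told apart. The deposited files hold estimated counts and TPM per transcript, made by the authors. Estimated counts were summed to genes through GENCODE M21 (GRCm38), which matched 83739 of 86127 transcripts (97.2%), and rounded. Unmatched transcripts held 0.221% to 0.301% of reads. Genes were filtered with edgeR's filterByExpr at a minimum count of 10 over the 16 libraries. They were scaled by TMM and tested with edgeR 4.0.16 (quasi-likelihood, robust, two-sided, 16 libraries, 6 group means, Benjamini-Hochberg over all genes, threshold 0.05). SE is the log2 difference over the square root of F. Transcript usage was tested with diffSpliceDGE on the 6 young libraries (10 reads per transcript, 50 per gene). Permutation tests were exact. The gene test between young soleus and young TA and the transcript usage test were run on simulated data. The other procedures were not. DESeq2 1.42.0, limma 3.58.1, other scalings, filters and left-out libraries were alternatives. Library numbers were not treated as pairing the muscles. Named genes are the 12 highest and 12 lowest called differences at 20 CPM or more without overlap, per list up to 6 called by p and up to 3 not called by level, all pair genes, the 10 largest transcript share differences, and up to 10 genes whose muscle difference changed with age. The transcript rule was not kept. Calls with 3 or fewer reads in 1 muscle were not described further, and the genes with other transcript calls were described instead. Comp, Gyg, Ndrg2, Nfatc2, Pgm1, Ppp1r1a, Ppp3ca, Prr32, Rcan2, Serpinf1, Slc25a13 and Unc45b were named after their values were seen. The comparison and its lists were chosen with earlier results of these data known. A few genes called in these lists are not reported here by name.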

Additional observations from a re-analysis of the deposited data

Results flagged for a closer look

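The difference between soleus and TA was itself tested against age, as old minus young on the log2 scale in edgeR's quasi-likelihood fit (3 libraries per muscle and age). The extracellular matrix gene Fmod, a tendon marker, had the smallest p, at 4.49 (adjusted p = 5.15e-05). Its level was 15.1 ± 5.87 CPM in young soleus and 34.3 ± 4.59 CPM in young TA, and 115.7 ± 37.4 CPM in old soleus and 12.3 ± 2.39 CPM in old TA (SD, n = 3). Myh2 had 2.24 (adjusted p = 0.0109), with old means of 4018.1 CPM in soleus and 537.3 CPM in TA against 3118.7 and 1962.8 CPM in young muscle. Other positive values were those of Sbk2 (2.10, adjusted p = 0.0018), Thbs4 (2.11, 0.0018), Smtnl1 (1.74, 0.0018), Gsn (1.59, 0.00586), Aebp1 (1.94, 0.0172), Pcx (1.91, 0.0172), Dusp26 (1.68, 0.0247) and Angptl7 (4.35, 0.0454). Sbk2 went from -0.89 in young to 1.22 in old muscle and Pcx from -1.23 to 0.67. Aebp1 went from -2.61 to -0.67 and Dusp26 from -2.13 to -0.45, so TA kept the higher mean. Fmod, Thbs4, Angptl7 and Comp (6.16, adjusted p = 0.00354) are 4 of the tendon markers, and all 4 had a higher mean in old than in young soleus and a lower mean in old than in young TA. The part of tendon in these differences was not tested. Gsn is one of the fibro-adipogenic markers, as is Serpinf1 (1.87, adjusted p = 0.0257). Old TA held 1151987 to 1862280 reads per library, and Comp was near the floor there, at 0.334 ± 0.579 CPM. The size of its difference is therefore uncertain. The phosphatase gene Dupd1 went the other way (-1.58, adjusted p = 0.0419), from 58.8 CPM in young soleus against 20.3 CPM in young TA to 85.7 against 87.7 CPM in old muscle.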

How the results depend on the processing

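The 1158 calls between young soleus and young TA became 1776 with scaling to total reads, 1844 with only the 6 young libraries and 2050 when these also carried a replicate block, and 754 to 1467 with 1 library left out, 754 without soleus replicate 1 and also without soleus replicate 2. The replicate block in all 16 libraries gave 1108, of which 1047 were shared. Correlations of same-numbered libraries were 0.0348, 0.0751 and 0.197, and those of differently numbered libraries ran from -0.257 to 0.241. With 3 libraries per muscle these values cannot decide whether the numbers pair the muscles, and no pairing was used. The block ended the Myh4 call in 16 libraries, and those of Myh4, Actn3 and Mybpc2 in the 6 young ones. The 14 age differences became 49 (DESeq2), 6 (limma-voom), 228 (no filter), 27 (12 soleus and TA libraries), 6 (18 libraries by title) and 8 to 18 with 1 library left out (8 without soleus replicate 2, TA replicate 2 or old TA replicate 2). The 2087 old calls ranged from 1462 to 2064 with 1 library left out. The 32 transcript calls became 65 (limma), 18 (replicate block), 19 (12 libraries) and 21 to 36 with 1 library left out, 21 without TA replicate 1. The median slow share difference of 57.7 points became 50.1 from read counts without length correction. The causes were not tested. Without mitochondrially encoded genes, an alternative chosen after seeing the data, 1153 genes were called, 1148 of them shared. Of 170 named calls, 117 held in all 26 settings run and 53 were lost in some, and none of the 274 named genes had a called value reversed. Depth limits genes below about 1 CPM.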
